A study of Homo sapiens with 4 samples.

Results

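The regions described here are 724 high-pileup peaks of one chromatin immunoprecipitation (ChIP-seq) library, made from human cells exposed to transforming growth factor β1 (TGF-β1). They were chosen from measured values in 3 steps. Only chromosomes 1 to 22 were kept. Every 1 Mb bin in which the control and TGF-β1 peak lists together had 20 or more peaks was then dropped, which removed 65 dense bins. The remaining TGF-β1 peaks were kept where the pileup at the summit was 25 or more and no control summit lay within 2 kb. The 724 peaks are 6.5% of the 11139 TGF-β1 peaks outside dense bins, and the whole TGF-β1 list holds 15993. The other 10415 TGF-β1 peaks outside dense bins are the comparison throughout.

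The labels call the cells HSC and describe them as stem cells and progenitors. A control ChIP, a control input, a TGF-β1 ChIP and a TGF-β1 input were sequenced, 1 library each. The series text gives 20 ng/mL of TGF-β1 for 2 h and the treatment text that all 4 libraries carry, the controls too, lists GDF11 at 100 ng/mL as well. Which of these cells, if any, met GDF11 and which antibody was used are not given in the sources used here, so the protein whose binding was measured is unknown. The cell type could not be checked, because a peak list holds no expression. With 1 library a group there was no test between conditions, and differences between the cultures, library depth and tag length cannot be told apart from the treatment. After removal of duplicates the TGF-β1 ChIP library held 45984282 tags of 43 bp and its input 46802425, while the control ChIP library held 36280696 tags of 60 bp and its input 66537905.

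TGF-β1 binds a pair of receptor kinases at the cell surface, which phosphorylate SMAD2 and SMAD3. These join SMAD4, enter the nucleus and bind DNA beside other transcription factors. In blood stem and progenitor cells the pathway is known for restraining proliferation. ChIP-seq finds DNA bound by a protein as places where immunoprecipitated fragments pile up. Input, chromatin sequenced without immunoprecipitation, shows how many fragments a place yields anyway. Repeats present in more copies than the reference genome holds, such as satellite DNA around centromeres, are known to pile up in both.

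Each peak carries 3 values from the authors' peak caller. Pileup is the number of extended ChIP tags over the summit, fold enrichment is pileup plus 1 over local background plus 1, and −log10 q is the caller's adjusted measure of that excess. The local background was recovered from the first and second of these. One input tag counts as 0.983 there because the input was scaled to the ChIP library. All are values of a single library, and they describe and rank peaks within it.

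Most high-pileup peaks had a moderate fold over an input several tags deep. Pileup of the 724 peaks ran from 25 to 139 with a median of 28, against a median of 17 in the other peaks, a difference the selection fixes. Their local background ran from 2.41 to 58.95 with a median of 7.86, against 3.93 in the others. Their fold enrichment ran from 1.70 to 9.88 with a median of 3.30, below the 3.65 of the other peaks. Background and fold are computed with the pileup, and a peak of low pileup passes the caller's q limit only over a low background. These medians are therefore a description of the chosen peaks, with nothing to be read from the contrast.

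**Figure D1:**
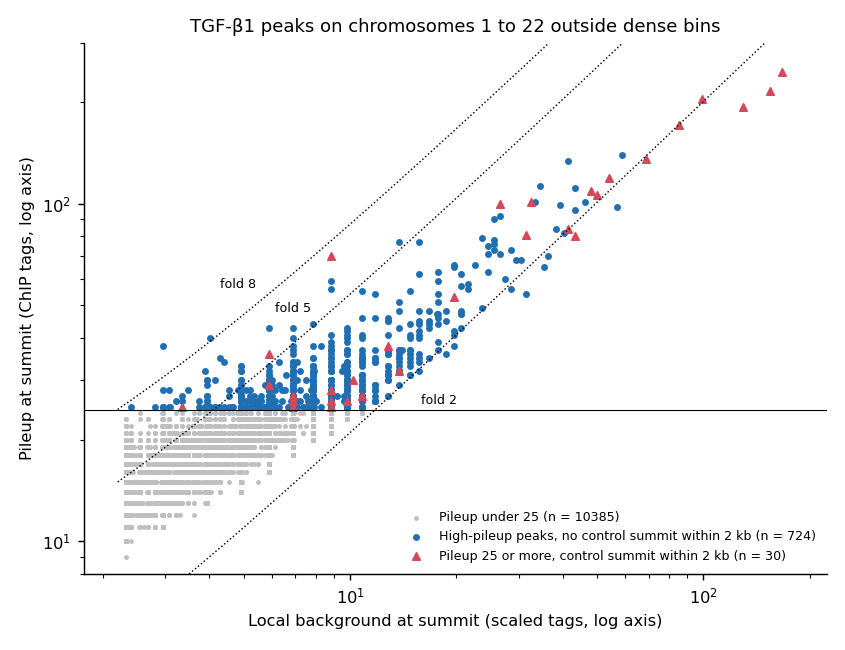
Pileup at the summit (ChIP tags, log axis) against local background (scaled tags, log axis) for TGF-β1 peaks on chromosomes 1 to 22 outside dense bins. Each point is a peak, dotted lines mark equal fold enrichment and the horizontal line the pileup limit. The 724 high-pileup peaks extend along the fold 2 line to a background of 58.95 tags.

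The local background equalled a whole number of input tags, within 0.002 tags, at 615 of the 724 peaks (84.9%), against 62.7% of the other peaks. At such summits the background is the input counted in a window of one fragment length at the summit itself. It can therefore be read as tags: the median high-pileup peak had 28 ChIP tags over 8 input tags. The whole-number share was 76.3% at a pileup of 25 and 82.0% at 24, just outside the selection. The q limit ties background to pileup, so nothing is read from the contrast with the other peaks.

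Background was called high where it exceeded 5 times the genome-wide level, or 11.6 tags. Of all TGF-β1 peaks outside dense bins 1.45% passed, of the high-pileup peaks 144 (19.9%; Wilson 95% interval 17.1 to 23%) and of the others 17. The selection fixes this contrast: all 17 were among the 30 peaks with a pileup of 25 or more that were left out for a control summit, and no peak with a pileup of 24 or 25 had a high background. These and the later intervals cover counting error only. By pileup class, which the q limit likewise ties to background, the share was 3.76% of the 452 peaks with 25 to 29 tags, 27.1% of the 177 with 30 to 39, 73.3% of the 60 with 40 to 59 and 100% of the 35 with 60 or more. Median fold enrichment in the same classes was 3.36, 3.23, 2.82 and 2.82. Fold enrichment of 5 or more was found at 7.1% of all TGF-β1 peaks outside dense bins, at 64 of the high-pileup peaks (8.84%; 6.98 to 11.1%) and at 727 of the others (6.98%).

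The highest fold enrichment belonged to a peak inside PTPRD, which encodes a receptor-type tyrosine phosphatase, at chromosome 9, 9442093 to 9442239 (hg38). It had a pileup of 38 over a background of 2.95, a fold of 9.88 (−log10 q 23.3), and the nearest control summit was 52.8 kb away. A peak 1759 kb from NCAM2, a neural cell adhesion gene, had a pileup of 40 and a fold of 8.19. A peak 5.15 kb from MSGN1, a transcription factor of the early mesoderm, had a pileup of 25 over 2.41 and a fold of 7.64. These 3 had backgrounds below the median of the high-pileup peaks.

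The next folds were 7.35 in C5, a complement component, and 7.12 at a peak 2769 kb from the potassium channel gene KCNJ18. A fold of 6.83 was found 731 kb from MAN1A1, which trims mannose from glycoproteins, and 6.82 was found 8.07 kb from FAM120AOS. The fold was 6.77 at a peak 88.2 kb from PDGFD, a platelet-derived growth factor gene. Peaks inside HBB, ZHX2 and EYS each had a fold of 6.59 from a pileup of 25. HBB encodes β-globin, ZHX2 a transcriptional repressor and EYS a protein of photoreceptors. Of these 8, the KCNJ18 peak lay within 3 bins of a dense bin.

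The last of the 15 highest folds were 6.48 in FSTL4, a follistatin-like gene, and 6.47 in CFAP52, a gene of cilia and flagella. SOX6, a transcription factor needed for red cell maturation and for silencing of fetal globin, held a peak at chromosome 11, 16668123 to 16668329. Its pileup was 27 over a background of 3.34, with a fold of 6.45 (−log10 q 11.6). A peak in the long non-coding RNA gene SCHLAP1, 250 kb from UBE2E3, had a fold of 6.42. Within these 15 the pileup stayed at or under 40.

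The highest pileups were at other places. A peak on chromosome 5, 50142466 to 50142606, 254 kb from EMB (embigin, a membrane glycoprotein), had 139 ChIP tags over 60 input tags, which gave a fold of 2.34. A peak 762 kb from ZNF254, a zinc finger gene, had a pileup of 134 over 41.3 and a fold of 3.19. A peak inside MED4, a subunit of the Mediator complex, had a pileup of 113 over 34.4, a fold of 3.22 (−log10 q 20.4). None of the 15 highest folds was among the 10 highest pileups.

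The other 7 of the 10 highest pileups ran from 92 to 111, with folds of 1.71 to 3.38. They were nearest to KHDRBS2, AFF3, EMB at 2 peaks, FRG2B at 2 peaks and LOC124904970. AFF3, a nuclear factor of lymphoid cells, lay 22.7 kb from a peak with a pileup of 101 and a fold of 2.96. The FRG2B pair lay by copies of the DUX4L repeat genes on chromosome 10, with pileups of 96 and 99 and folds of 2.19 and 2.48.

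**Figure D2:**
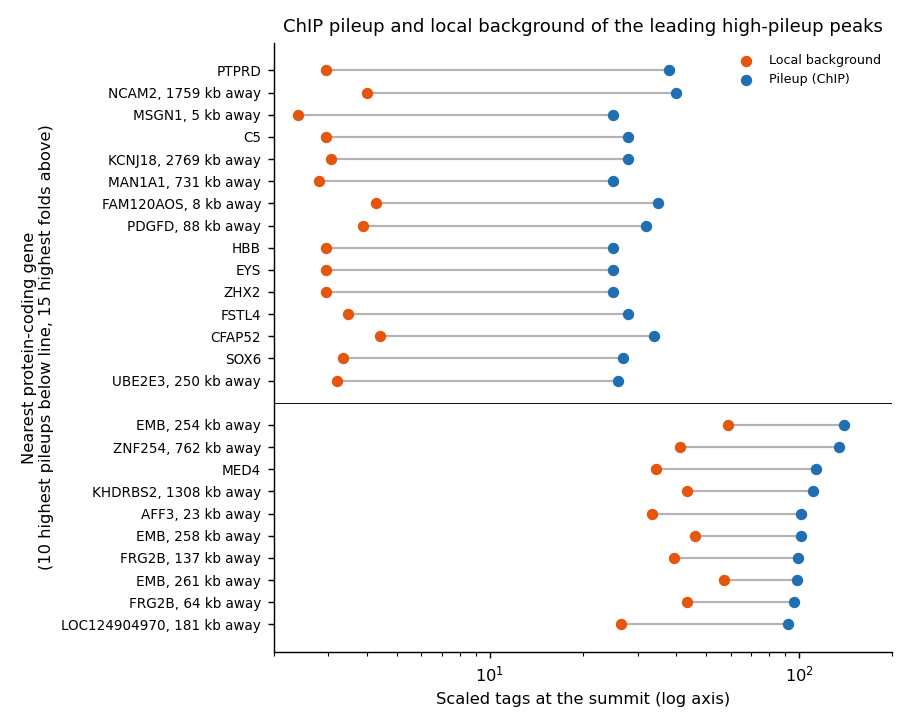
ChIP pileup (blue) and local background (orange) at the summit, in scaled tags on a log axis, for the 15 high-pileup peaks of highest fold (upper block) and the 10 of highest pileup (lower block). Rows are named by the gene that holds the summit or the nearest protein-coding gene with its distance. The EMB peak at 139 tags has a background of 58.95, and the PTPRD peak at 38 has 2.95.

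Of the 35 peaks with a pileup of 60 or more, 16 lay within 3 bins of a dense bin and none of these was inside a protein-coding gene. The remaining 19 included 7 inside protein-coding genes. Besides MED4 these were CCDC198 (pileup 90, fold 3.43), TECTA (79, 3.25), MKX (77, 4.66), AP3B1 (75, 2.97), RFX3 (71, 2.62) and ATP5MF (66, 3.24). TECTA encodes a protein of the inner ear, MKX a homeobox factor of tendon, AP3B1 a subunit of the AP-3 trafficking complex, RFX3 a factor of ciliated cells and ATP5MF a subunit of mitochondrial ATP synthase. A peak 11.7 kb from TRIM25, a ubiquitin ligase of antiviral signalling, had a pileup of 77 over 13.8 and a fold of 5.29. Its −log10 q of 25.9 was the highest of all 724, and it was the only high-background peak among them with a fold of 5 or more. The genes of this paragraph outside the 10 highest pileups were picked after their values were seen.

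Summits were placed against RefSeq gene bodies. High-pileup peaks lay inside a protein-coding gene at 306 of 724 (42.3%; 38.7 to 45.9%), and the other peaks at 4571 of 10415 (43.9%; 42.9 to 44.8%). The intervals overlap, and protein-coding genes cover 43.0% of the bases outside dense bins. The share differed within the high-pileup peaks. It was 46.6% in the 580 with low background and 25.0% (18.6 to 32.7%) in the 144 with high background.

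A further 62 peaks (8.56%) lay only inside a long non-coding RNA gene, against 12.7% of the others. Another kind of gene alone held 19 (2.62%, against 1.34%). Outside genes, 51 were within 10 kb of a protein-coding gene, 104 at 10 to 100 kb and 95 at 100 to 500 kb. The 87 peaks over 500 kb away made up 12% (9.85 to 14.6%), against 7.11% of the other peaks. That far class held 23.6% of the high-background and 9.14% of the low-background peaks. Away from dense bins no such excess over the other peaks was seen, on a wider count given below.

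Distance from the dropped bins moved with place. Within 3 bins of a dense bin lay 145 high-pileup peaks (20.0%; 17.3 to 23.1%) and 447 of the others (4.29%). Of these 145, 14 were inside a protein-coding gene (9.66%) and the median distance to the nearest was 304 kb. The other peaks were inside at 4571 of 10415 in all and at 4465 of the 9968 farther away. Their share near dense bins was therefore lower too. Of the 579 high-pileup peaks farther away, 292 were inside (50.4%; 46.4 to 54.5%), against 44.8% of the other peaks at that distance. Of the same 579, 5.01% stood outside genes and over 500 kb from a protein-coding one. The wider count takes every summit over 500 kb from a protein-coding gene, inside another kind of gene or not. It held 6.04% of the 579, against 8.58% of the other peaks at that distance. Chromosomes 14 and 19 have no dense bin, so all their peaks count as farther away. Among them is a chromosome 14 peak with a pileup of 68, 2509 kb from OR11H12. The part of the dense bins in these shares beyond this split was not tested.

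**Figure D3:**
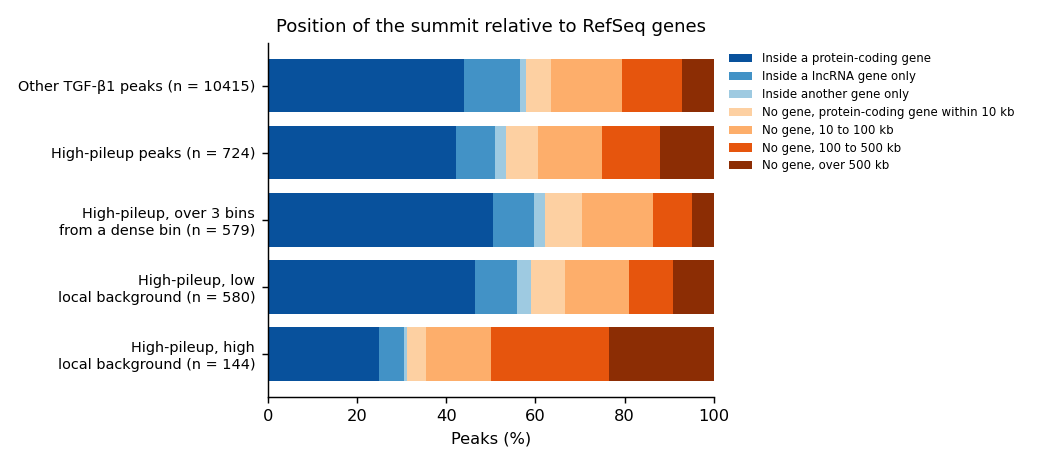
Share of peaks (%) by the position of the summit relative to RefSeq genes, for the other TGF-β1 peaks, all high-pileup peaks, those over 3 bins of 1 Mb from a dense bin, and those of low and high local background. The protein-coding share is 42.3% in all high-pileup peaks and 25.0% in those of high background.

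The 306 inside peaks fell in 301 protein-coding genes, some of which overlap. Of these genes 75 (24.9%; 20.4 to 30.1%) also held a control summit somewhere in their length. The share was 18.9% (17.5 to 20.4%) of the 2808 genes that held other TGF-β1 peaks alone, and the intervals meet. It was 5.67% of all protein-coding genes, which are shorter. Counted once per peak, the median length of the gene was 140 kb for high-pileup peaks and 191 kb for the other inside peaks. Counted once per gene, the order was reversed. The median was 129 kb for the 301 genes, 119 kb for the 2808 and 24.5 kb over all protein-coding genes. Genes over 1 Mb held 18 of the inside peaks (5.88%, against 8.23% of the others), among them CTNNA3, PTPRD, MACROD2, EYS, LRP1B, ROBO2, CDH13 and DCC.

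High-pileup peaks recurred in 12 protein-coding genes. CTNNA3, an α-catenin of cell junctions, held 3 with pileups of 33 to 45 and folds of 2.75 to 3.42, beside 13 TGF-β1 summits in all and no control summit. ENTREP2 held 3 with folds of 2.27 to 5.27. PCCA (propionyl-CoA carboxylase), PRIM2 (DNA primase), UBE2E2 (ubiquitin conjugation), PRR16 and CDC42BPA (a kinase that acts with CDC42) held 2 each. So did PLEKHG1 (a guanine exchange factor), NRG2 (neuregulin 2), BRIP1 (a DNA repair helicase), ULK2 (an autophagy kinase) and HBB. PCCA, PRIM2, NRG2 and BRIP1 each also held 1 control summit, and the rest of the 12 held none.

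HBB was the shortest of the 12. Its peaks stood at chromosome 11, 5225519 to 5225751 and 5226622 to 5226804. The first had a pileup of 32 over a background of 4.91, a fold of 5.58 (−log10 q 11.6). The second had 25 over 2.95, a fold of 6.59 (−log10 q 11.1). Both lay above the median fold of the high-pileup peaks and below their median background.

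Gene ends were close to few of the peaks. Either end of some protein-coding gene lay within 1 kb of 5 (0.691%; 0.295 to 1.61%), against 115 of the others (1.1%; 0.921 to 1.32%), and within 5 kb 62 (8.56%), against 7.60%. The 5 were the HBB pair, a peak by GSTA4 that lies in a small RNA gene described next, a peak 267 bp from an end of PGAP1 (pileup 25, fold 2.93) and a peak 659 bp from an end of BCAS2 (pileup 29, fold 3.39). PGAP1 works on GPI-anchored proteins and BCAS2 in the spliceosome.

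Genes that RefSeq classes as small or structural RNA, with their pseudogenes, were within 300 bp of 6 high-pileup summits (0.829%; 0.380 to 1.80%) and held 4 of them (0.552%; 0.215 to 1.41%). Of the other peaks 13 were that close (0.125%; 0.073 to 0.213%) and 2 were inside (0.0192%), 1 in RN7SL4P and 1 in LOC112268070, a miscellaneous RNA gene far longer than a small RNA. RN7SK, the RNA that holds the elongation factor P-TEFb inactive, held a peak at chromosome 6, 52995650 to 52995840, with a pileup of 55 over 10.8, a fold of 4.74 (−log10 q 16.4). RN7SL1 and RN7SL2, the RNA of the signal recognition particle, held peaks on chromosome 14 at 49586618 to 49586763 and 49862593 to 49862817.

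The RN7SL1 peak had a pileup of 46 and a fold of 3.67, and the RN7SL2 peak a pileup of 56 and a fold of 5.79. The PTPRD peak of highest fold lay inside RN7SL5P, a 7SL pseudogene in that gene. RNA5SP348, a 5S ribosomal RNA pseudogene, was 229 bp from the PDGFD peak, and a small nucleolar RNA gene, LOC124900469, was 269 bp from a peak with a pileup of 30 and a fold of 4.50. The 7SK and 7SL genes have near-identical copies elsewhere in the genome, and filters on mapping quality are not given in the sources used here, so these positions are uncertain.

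Among microRNA genes, a peak in DLEU2 at chromosome 13, 50047666 to 50047814, lay 1.22 kb from the hairpin of MIR16-1 and 1.36 kb from that of MIR15A. DLEU2 is a long non-coding RNA gene deleted in many chronic lymphocytic leukaemias, and the microRNAs lower BCL2. The peak had a pileup of 25 over 7.86, a fold of 2.93 (−log10 q 3.29). Both fold and −log10 q were below the medians of the high-pileup peaks, 3.30 and 5.15. The mature sequences are shown because this one peak neighbours a pair of microRNAs that share a seed. They come from RefSeq (GRCh38.p14), 5′ to 3′, with the seed (bases 2 to 8) in capitals.
hsa-miR-15a-5p: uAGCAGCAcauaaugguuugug
hsa-miR-16-5p: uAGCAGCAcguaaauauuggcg
MIR4509-1 and MIR4789 also lay within 5 kb of a high-pileup peak. How often the other TGF-β1 peaks lay as near a microRNA gene is not given here, so nothing is read from this nearness. The MIR4789 peak was in NAALADL2 and had a fold of 5.48.

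Lists of 172 genes of blood cells and of the TGF-β and MYC pathways were searched, 166 of which the RefSeq table holds, for peaks that stood inside a listed gene or were nearest to it within 100 kb. High-pileup peaks made up 5 of 84 such peaks (5.95%), near the 6.5% of all TGF-β1 peaks outside dense bins. They fell at 4 genes, while 79 other peaks fell at 52. Of 10 globin genes HBB alone had a high-pileup peak, while 3 other TGF-β1 peaks fell at 3 of the 10. Of 37 erythroid genes GFI1B, a repressor needed for red cells and platelets, had 1, with a pileup of 26 over 9.83 and a fold of 2.49. Another 9 TGF-β1 peaks fell at 8 of the 37. SOX6, which held a peak described above, is on none of the lists.

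At 38 genes of the TGF-β pathway (ligands, receptors, SMADs and inhibitors) none of 33 TGF-β1 peaks, which fell at 17 genes, was high-pileup. The 33 genes known to respond to TGF-β also had none among 11 peaks, which fell at 8 genes. None was at 30 stem and progenitor genes either, among 19 peaks at 12 genes. With 6.5% of all TGF-β1 peaks outside dense bins high-pileup, so few peaks can hold none, and nothing is read from these absences. Of 18 genes of the MYC network, MYCL had a high-pileup peak 8.90 kb away (pileup 57 over 20.6, fold 2.68). MGA, which pairs with MAX, had a high-pileup peak inside (pileup 26, fold 2.11). Another 4 TGF-β1 peaks fell at 4 of the 18. Within the same 100 kb, zinc finger genes named ZNF were nearest to or held 14 high-pileup peaks (1.93%, against 1.83% of the others), and olfactory receptor genes 6 (0.829%, against 0.557%).

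Length differed little at the median and more at the short end. The median was 157 bp (136 to 398), against 160 bp (136 to 428), and the middle 50% ran from 142 to 187 bp in both sets. Peaks at the shortest length the caller allows, 136 bp, were 81 (11.2%; 9.09 to 13.7%), against 14.6% (13.9 to 15.3%). Median length was 162.5 bp at pileups of 25 to 29 and 146 bp at 60 or more. The longest was 398 bp, at chromosome 15, 50896452 to 50896849 by AP4E1, a subunit of the AP-4 trafficking complex, with a pileup of 26 and a fold of 4.08.

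A TGF-β1 peak of any pileup lay within 100 kb of 459 high-pileup peaks (63.4%, 59.8 to 66.8%). This held for 59.7% of the others (58.8 to 60.6%). Of high-pileup peaks alone, which are few by selection, 581 had no other within 100 kb, and 143 (19.8%; 17.0 to 22.8%) formed 49 clusters. Of these, 22 clusters had 3 or more peaks and 27 were pairs. The larger ones were by the dropped bins and far from genes. Of the 22, 18 had a peak within 3 bins of a dense bin, 17 were over 100 kb from any protein-coding gene, and 2 had a summit inside one.

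The largest held 9 peaks over 177 kb of chromosome 5 (summits 50018975 to 50196214), 200 kb from EMB. Their pileups, in order of position, were 62, 84, 82, 48, 98, 101, 63, 139 and 25, over 21, 39, 41, 19, 58, 47, 25, 60 and 6 input tags. ChIP and input were high at the same summits, and the folds ran from 1.71 to 3.77. Clusters of 7 stood on chromosome 2 (94005368 to 94078999) and chromosome 20 (30000046 to 30108302), and clusters of 6 on chromosomes 17 and 21. A cluster of 4 on chromosome 11, 187 kb from the olfactory receptor gene OR4C46, had the highest folds of these, 3.27 to 6.36.

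Away from dense bins 4 of the larger clusters were left. On chromosome 8, 4 peaks had pileups of 36 to 37 and folds of 2.35 to 2.69. They stood in or nearest to REXO1L9P, REXO1L2P, REXO1L5P and REXO1L6P, copies in a tandem gene array. A cluster of 3 was near POTEM on chromosome 14, which has no dense bin. On chromosome 13 a cluster of 3, 2 in PCCA and 1 beside it at ASNSP3, had pileups of 25 to 26 and folds of 3.46 to 5.69. BRIP1 and its neighbour INTS2, a subunit of the Integrator complex, had 3 between them, with pileups of 27 to 33 and folds of 3.16 to 4.35. The PCCA and BRIP1 clusters are the 2 with summits in protein-coding genes.

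**Figure D4:**
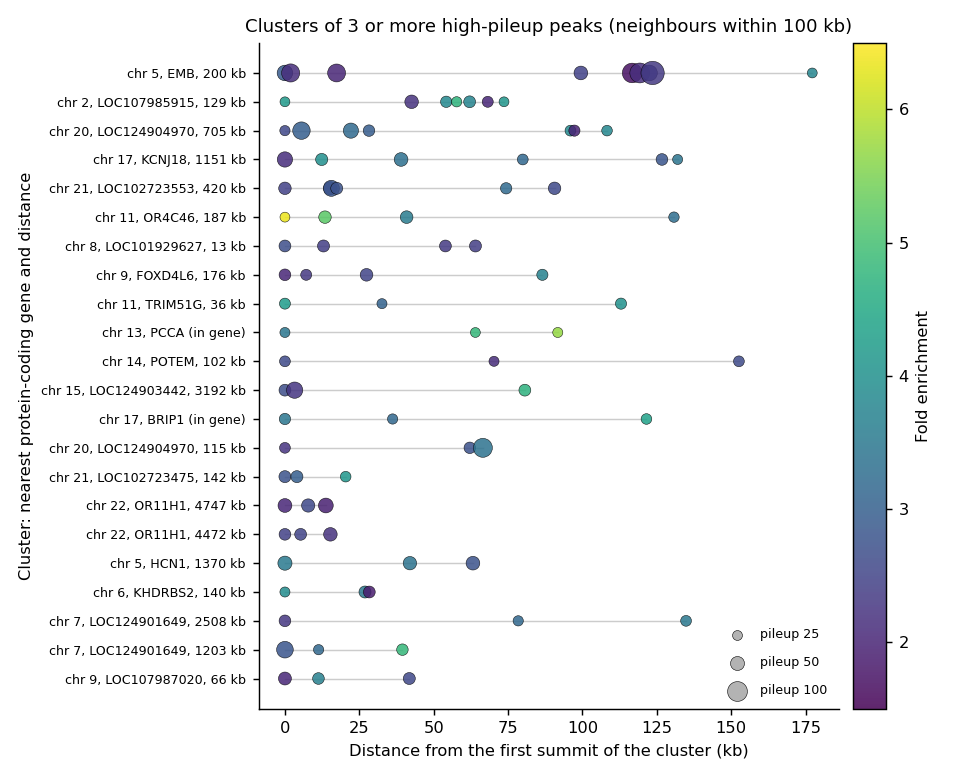
Clusters of 3 or more high-pileup peaks, neighbours within 100 kb, as distance from the first summit (kb). Each point is a peak, its area follows pileup and its colour fold enrichment, and rows name the nearest protein-coding gene. The EMB cluster holds 9 peaks over 177 kb with pileups of 25 to 139.

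Pairs differed in place from the larger clusters. Both summits were inside protein-coding genes in 10 of 27, 1 summit in 3 and none in 14, and 17 pairs were away from dense bins. The 10 with both summits inside were in CDC42BPA, HBB, ENTREP2, ULK2, NRG2, PRIM2, PLEKHG1, ZNF227 with ZNF233, SLC8A2 with ZNF541, and GORASP2 with TLK1. Of these, the ULK2 and PRIM2 pairs lay within 3 bins of a dense bin. A TGF-β1 peak of any pileup lay within 10 kb of 115 high-pileup peaks (15.9%; 13.4 to 18.7%) and of 10.3% of the others (9.71 to 10.9%). Away from dense bins these shares were 10.9% and 10.1%.

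By chromosome, high-pileup peaks were 16.5% of the TGF-β1 peaks outside dense bins on chromosome 22 (19 of 115; 10.8 to 24.4%), 15.3% on chromosome 17 (50 of 326; 11.8 to 19.7%) and 13.6% on chromosome 21 (23 of 169). Chromosome 18 had 2.74% (9 of 329; 1.45 to 5.12%) and chromosome 4 had 2.92% (24 of 822; 1.97 to 4.31%). Leaving out peaks within 3 bins of a dense bin gave 9.57% on chromosome 22, 9.67% on 17 and 5.88% on 21. Chromosome 19, which has no dense bin either, had 11.2% (23 of 205).

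Windows of 10 Mb with at least 20 TGF-β1 peaks show where the peaks were packed. At the start of chromosome 21, 14 of 26 TGF-β1 peaks were high-pileup (53.8%), and at 20 to 30 Mb of chromosome 17, 20 of 46 (43.5%). All of these were within 3 bins of a dense bin. Chromosome 2 at 90 to 100 Mb had 14 of 35, 13 of them that near. Away from dense bins the highest shares were 22.9% at 40 to 50 Mb of chromosome 19 (8 of 35) and 20.6% at 120 to 130 Mb of chromosome 9 (7 of 34).

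**Figure D5:**
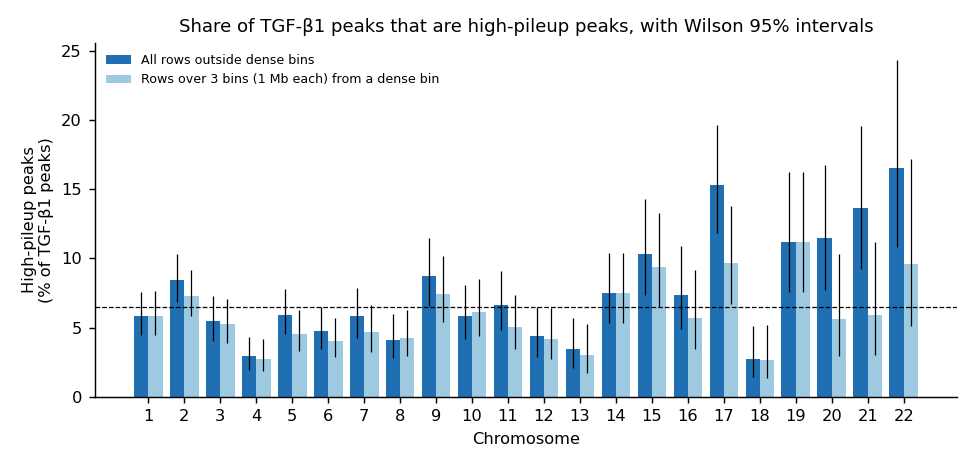
High-pileup peaks as a share (%) of TGF-β1 peaks on each chromosome, over all peaks outside dense bins (dark bars) and over those more than 3 bins of 1 Mb from a dense bin (light bars). Lines are Wilson 95% intervals and the dashed line is 6.5%, the share over all chromosomes, and chromosome 17 goes from 15.3% to 9.67%.

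The limits of the selection cut through continuous values. At a pileup of 25 stood 169 of the peaks, with a median fold of 3.30, a median background of 6.88 and 56.8% inside protein-coding genes. At 24, just outside, stood 222 peaks with 3.63, 5.90 and 47.7%. Of all TGF-β1 peaks outside dense bins 6.77% had a pileup of 25 or more, and 30 of these were left out for a control summit within 2 kb. Those 30 had a median pileup of 61.5 and a median background of 16.7, and 56.7% had high background.

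The median distance from a high-pileup peak to the nearest control summit, a value the selection uses, was 243 kb, against 288 kb for the others. Over 3 bins from a dense bin the order was reversed, with 320 kb against 292 kb. The closest kept were 2591 bp away, at chromosome 22, 10775245 to 10775429, and 2636 bp away, at the ZNF254 peak with a pileup of 134. The farthest left out were at 1918 bp, inside DUX4, and 1908 bp, nearest to IZUMO2. The files give no control value at a place with no control peak, so these distances say that no control peak was called, not that the control had fewer tags.

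The same selection turned round, control peaks outside dense bins with a pileup of 25 or more and no TGF-β1 summit within 2 kb, kept 356 of 3110 (11.4%; 10.4 to 12.6%). Their median fold was 3.07, their median background 8.72 and their median length 172.5 bp, and 37.6% (32.8 to 42.8%) were inside protein-coding genes. At a pileup of 20 or more, the nearer limit for a library with fewer tags, 1281 were kept (41.2%), with a median fold of 3.31 and 45.5% inside protein-coding genes. High pileup without a peak in the other list was therefore present in both directions. The control library held fewer ChIP tags and a deeper input, so the counts of the 2 lists were not compared further.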

How the data were processed

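ChIP and input libraries of control and TGF-β1 cells, 1 each, were described from the authors' peak lists. The submitters' processing notes name Bowtie2, the hg38 build and MACS2 2.1.0, whereas the file headers name another release of MACS. Peaks were called for each ChIP library against its own input, without pooling, per the file headers. Pileup, as deposited, is a signal: extended ChIP tags over the summit. The deposited fold enrichment is a ratio to local background, and the authors' peak caller gave each peak's −log10 q-value and −log10 p-value. At most 1 tag was kept at each position, per the file headers, which caps pileup.

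Local background was computed as pileup plus 1 over fold, minus 1. Genes came from a RefSeq table (GRCh38.p14). Intervals are Wilson 95% intervals, computed with statsmodels 0.14.6, pandas 2.3.3 and Python 3.11.15. Scripts were tested on simulated data. A peak list has no replicates, so no test was made.

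The peaks and the gene lists were chosen with earlier results of these data known. Genes were named by rule: the 15 highest folds, the 10 highest pileups, genes or 100 kb clusters with 2 or more peaks, peaks at listed genes and peaks within 1 kb of a gene end. Exceptions, picked after their values were seen, are the high-pileup genes so marked, genes over 1 Mb, genes near small RNAs and microRNAs, the longest peak and the peaks at the distance limit. Exons and transcription starts were planned, but exon positions were not used here and the table of promoters covers 79.0% of protein-coding genes, so distance to either gene end replaced them.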

Additional observations from a re-analysis of the deposited data

How the results depend on the processing

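With no replicates, a value counts as moved when it leaves its own 95% counting interval or, for a count, changes by over 1.5 times. Each changed setting was scored on several results. Of the 65 pairs of a result and a changed setting, 34 left the value in place and 31 moved it. The number of peaks was 724 and became 3246 at a pileup of 20, 272 at 30, 3035 with no bins dropped and 68 at a −log10 q of 10. The share inside protein-coding genes (42.3%) became 48.3% at a pileup of 20, 27.6% at 30, 47.8% with bins of 10 or more peaks dropped, 10.1% with no bins dropped, 33.8% at a −log10 q of 10, 46.6% without high-background peaks and 50.4% without peaks within 3 bins of a dense bin, a setting chosen after seeing the data. The high-background share (19.9%) became, in that order but with no value for the setting without high-background peaks, 4.44%, 46.7%, 14.9%, 48.9%, 32.4% and 14.7%. The share with another peak within 100 kb (19.8%) became 29.4%, 25.7%, 7.79%, 80.0%, 8.82%, 11.6% and 8.12% in the full order, and 6.49% within 10 kb. Median length (157 bp) became 151.5 bp at a pileup of 30 and 162 bp at a −log10 q of 10. The share within 1 kb of a gene end (0.691%), a measure also chosen after seeing the data, became 0.165% with no bins dropped, 4.41% at a −log10 q of 10 and 8.56% within 5 kb. Of the 15 highest folds, 5 were still in the selection at a pileup of 30. Exon overlap and distance to transcription starts were not run. The cause of these shifts was not tested. No paired analysis was possible because each group held 1 library.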
